A study of Mus musculus with 24 samples.

Results

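RNA from epididymal white fat of 24 mice was compared to ask which genes responded to the presence of gut bacteria differently under 2 dietary fats. All 24 arrays of the series entered, 6 in each of 4 groups taken from the sample titles: conventional and germ-free mice fed fish oil, and conventional and germ-free mice fed lard. All were wild-type male C57Bl/6 mice, 11 weeks old at the start and kept for 11 weeks on diets of equal energy with 45% of it as fat, from menhaden fish oil or from lard. They were fasted for 4 hours before the fat was taken, and each array holds 1 mouse. Conventional mice carry a normal gut flora and germ-free mice none. The effect of bacterial status is the mean log2 value of conventional mice minus that of germ-free mice on the same diet. The interaction is this effect with lard minus this effect with fish oil, so a gene with a positive value was higher in conventional mice with lard than with fish oil, relative to germ-free mice.

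White fat stores triglyceride in adipocytes and also holds macrophages, dendritic cells, endothelial cells and progenitors. Bacterial products that leave the gut are sensed by Toll-like receptors, which signal through the adaptors Myd88 and Ticam1 to NF-kappaB and interferon regulatory factors and raise chemokines and acute-phase proteins. Fatty acid synthesis in fat runs from acetyl-CoA through acetyl-CoA carboxylase and fatty acid synthase, and omega-3 fatty acids of fish oil are known to restrain it in liver. A difference in a transcript of whole fat can come from the number of cells of a type or from the RNA in each cell, and these cannot be told apart here.

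Transcripts of other tissues were uneven between mice. The defining adipocyte transcripts were abundant in every group, with the mean of 17 adipocyte markers between 11.52 and 12.55 in the 24 mice. With fish oil, the mean of 26 liver markers was 7.95 to 9.19 in germ-free and 6.58 to 7.95 in conventional mice, and with lard it was 6.29 to 7.32 and 6.69 to 7.94. The mean of 24 intestinal epithelium markers was 9.05 in lard-fed germ-free mouse 4, 5.74 to 6.48 in the other mice of that group and 5.71 to 6.06 in the other groups. Lard-fed conventional mice 5 and 6 had the lowest adipocyte means, 11.56 and 11.52, and the macrophage integrin Itgax was 11.43 and 11.70 in them, 9.77 to 10.11 in the other 4 and 10.64 to 11.96 in lard-fed germ-free mice. Mouse 6 lay within the range of the lard-fed germ-free mice in 52.9% of the 1921 genes in which the other 5 conventional mice were clear of it. It lay outside that range in other genes, some named below because groups were apart in them. Entpd4 was 10.12 in it, 9.84 to 10.06 in the other 5 and 10.86 to 10.99 in lard-fed germ-free mice. Its Saa3, 10.44, and Cxcl10, 9.56, were above all lard-fed germ-free mice, at most 9.70 and 9.19. Whether its label is right cannot be told from the files.

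At an adjusted p under 0.05 (limma, Benjamini-Hochberg over all 19938 genes), the interaction passed for 1435 genes, 7.2% of those tested. Of these, 561 (2.81%) were positive, with a median of 0.494, and 874 (4.38%) were negative, with a median of -0.438. A change of 1 on this scale is 2-fold, the median standard error was 0.117, and 385 of the called genes were at least 1.5-fold (1.93%). Without lard-fed conventional mouse 3 the count was 861, without fish oil-fed conventional mouse 3 it was 909, and without lard-fed germ-free mouse 4 it was 923. When lard-fed germ-free mice 2, 4 and 5, those with the highest intestinal marker means, were left out, 225 genes passed in a smaller design. All 1435 kept their sign, which tests little, since they were called in a fit that held all the remaining mice. When lard-fed conventional mice 5 and 6 were left out, 2710 passed, and without mouse 6 alone 2068. Of the called genes described below, Lcn2, Ffar4, H2-Ob, Lyz2, Acaca, Acss2, Cidea and Plin1 were lost without both mice, with limma adjusted p of 0.0541 to 0.0969. Of 93 called genes followed through each alternative, 59 were not called without the 3 germ-free mice. Still called of those described here were Ccl22, Cxcl12, Il1a, Elovl6, Me1, Acot2, Atp5b, Oxtr, Timmdc1, Pdcd4, Dhdh, Dpep1, Rasd1, Hspa1a, Bag3, Ddit4, Psat1, Abi3, Mr1, Tagln, Ide, F7, Crp and the liver genes. With the mean of the liver markers as a covariate, 863 of the 1435 genes were called. With each array centred on its median, 312 positive and 1688 negative genes passed. Of the called genes described below, H2-Ob, Clec9a, Lyz2 and Gpr35, all positive, were lost in that fit, with limma adjusted p of 0.0569 to 0.112.

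Bacterial status passed on its own for 3240 genes with lard (16.3%), 8.77% higher and 7.48% lower in conventional mice. With fish oil it passed for 2464 (12.4%), 7.15% higher and 5.21% lower. At least 1.5-fold were 1.47% of genes with lard and 1.81% with fish oil. The 2 differences share no mice, but both tests came from the same fit, with a spread per gene estimated over all groups. The 2 tests are therefore not independent. With only the groups compared in the fit, 2198 genes passed with lard and 3102 with fish oil. Higher in conventional mice with both fats were 542 genes (16.7% of the lard calls, 22% of the fish oil calls) and lower with both were 134 (4.14% and 5.44%). In opposite directions, 44 genes were lower in conventional mice with lard and higher with fish oil (1.36% and 1.79%), and 16 were the reverse (0.494% and 0.649%). Across the 19938 genes the 2 effects correlated with r = 0.263, a description over genes, which are not independent.

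**Figure D1:**
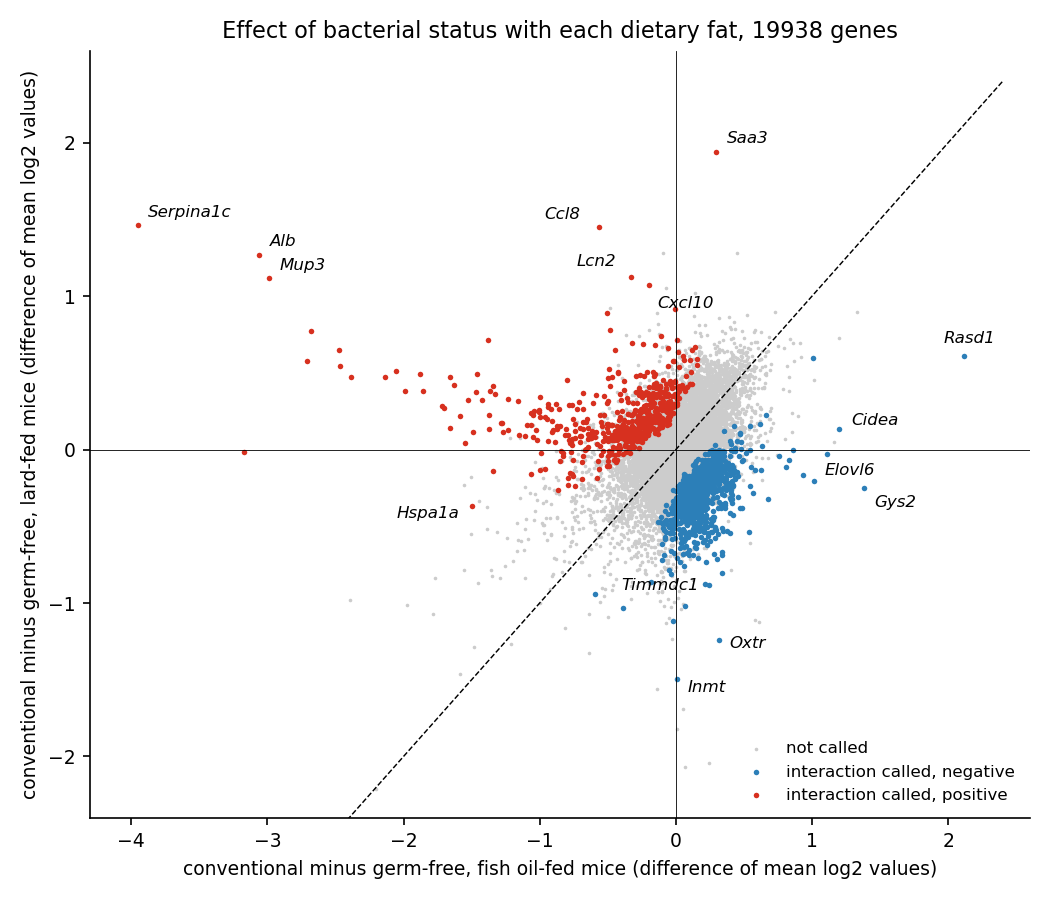
Each point is 1 gene, with conventional minus germ-free in fish oil-fed mice on the x axis and in lard-fed mice on the y axis, both as differences of mean log2 values over 6 mice a group. The 561 positive interaction calls (red) lie above the dashed line of equal effects and the 874 negative calls (blue) below it, with liver transcripts far to the left and Saa3 at the top.

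Several acute-phase and chemokine genes were highest in lard-fed conventional mice. Of 43 measured chemokine and cytokine genes, 8 (18.6%) had a positive interaction past the threshold, against 2.81% of all genes, and 0 a negative one, with a list median of 0.32 against 0.0364 over all genes. Of 19 acute-phase genes, 5 (26.3%) were positive and 0 negative, with a median of 0.30. The largest of these interactions was that of Hpx, which is also a member of the liver list described below.

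Saa3, an acute-phase protein made by adipocytes and macrophages, was 8.19, 9.37 and 9.64 (lowest, median, highest log2 value) in fish oil-fed conventional and 7.99, 9.08 and 9.64 in fish oil-fed germ-free mice. With lard it was 10.44, 11.10 and 11.97 in conventional and 8.56, 9.24 and 9.70 in germ-free mice. All 6 lard-fed conventional mice were above all 18 other mice, which overlapped each other. The interaction was 1.64 (SE 0.40, limma adjusted p = 0.0149), from an effect of 1.94 with lard and 0.30 with fish oil. It was called in all 24 fits that left out 1 mouse, and once mice 2, 4 and 5 of the lard-fed germ-free group were dropped it was 1.55 (limma adjusted p = 0.1). Such a position, with all mice of a group above all others, was held by lard-fed conventional mice in 48 of all genes (0.241%) and in 18 of the interaction calls, and they were below all others in 0.115% of genes.

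Cxcl10, an interferon-induced chemokine that draws T cells, followed the same order. It was 9.56, 9.77 and 10.64 in lard-fed conventional mice, 8.30, 9.02 and 9.19 in lard-fed germ-free mice, and 7.72 to 9.10 over both fish oil-fed groups. The lard-fed conventional mice were again above all others, with an interaction of 1.27 (SE 0.32, limma adjusted p = 0.0163), or 1.01 (0.156) without those 3 germ-free mice. Lcn2, an iron-scavenging lipocalin of the innate response, was 10.56 to 11.86 in lard-fed conventional and 9.44 to 10.40 in lard-fed germ-free mice, while the fish oil groups overlapped at 8.52 to 10.52 and 9.16 to 10.73. Its interaction was 1.46 (SE 0.42, limma adjusted p = 0.0343), and it was called in 13 of the 24 fits without 1 mouse, with a largest adjusted p of 0.0632 without lard-fed conventional mouse 3. Without lard-fed conventional mice 5 and 6 the Lcn2 interaction was 1.24 (limma adjusted p = 0.0559).

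Monocyte chemokines had large but scattered differences. Ccl8 was 7.74, 8.33 and 9.92 in fish oil-fed conventional, 7.72, 9.13 and 10.38 in fish oil-fed germ-free, 8.38, 9.85 and 10.38 in lard-fed conventional and 7.84, 8.13 and 8.60 in lard-fed germ-free mice. The lard-fed germ-free mice were uniformly low and the other groups spread widely. Its interaction, 2.01 (SE 0.55, limma adjusted p = 0.0287), was the largest among chemokines, and Ccl7 had 1.39 (adjusted p = 0.0375). Ccl8 was called in 20 of the 24 fits without 1 mouse and Ccl7 in 9, with largest adjusted p of 0.0583 and 0.0754, each without lard-fed conventional mouse 3. Ccl2, the main monocyte attractant of fat, had a value of 1.11 that missed the threshold (limma adjusted p = 0.0837). It was called in 0 of the 24 fits without 1 mouse, with a largest adjusted p of 0.153. Without lard-fed germ-free mice 2, 4 and 5 it was 1.05 (limma adjusted p = 0.301). It passed without lard-fed conventional mice 5 and 6 (1.31, 0.033) and with the liver covariate (2.59, 0.00188).

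Among chemokines that guide dendritic cells and lymphocytes, Ccl22 had an interaction of 0.77 (limma adjusted p = 0.00243) from opposite differences: 0.48 with lard and -0.29 with fish oil, the second of which missed the threshold (adjusted p = 0.0523). Cxcl12 had 0.66 (adjusted p = 0.00499) and Ccl19, a ligand of Ccr7, had 0.97 (adjusted p = 0.0244). Il1a, an alarm cytokine, had a positive interaction of 1.18 (limma adjusted p = 0.00271) from another pattern: with fish oil it was 5.29, 6.18 and 6.67 in germ-free mice, 5 of which were above the other 18, at 4.76 to 5.60. The cytokines Tnf (0.29, limma adjusted p = 0.271), Il6 (0.38, 0.353) and Il1b (0.25, 0.634) did not pass.

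**Figure D2:**
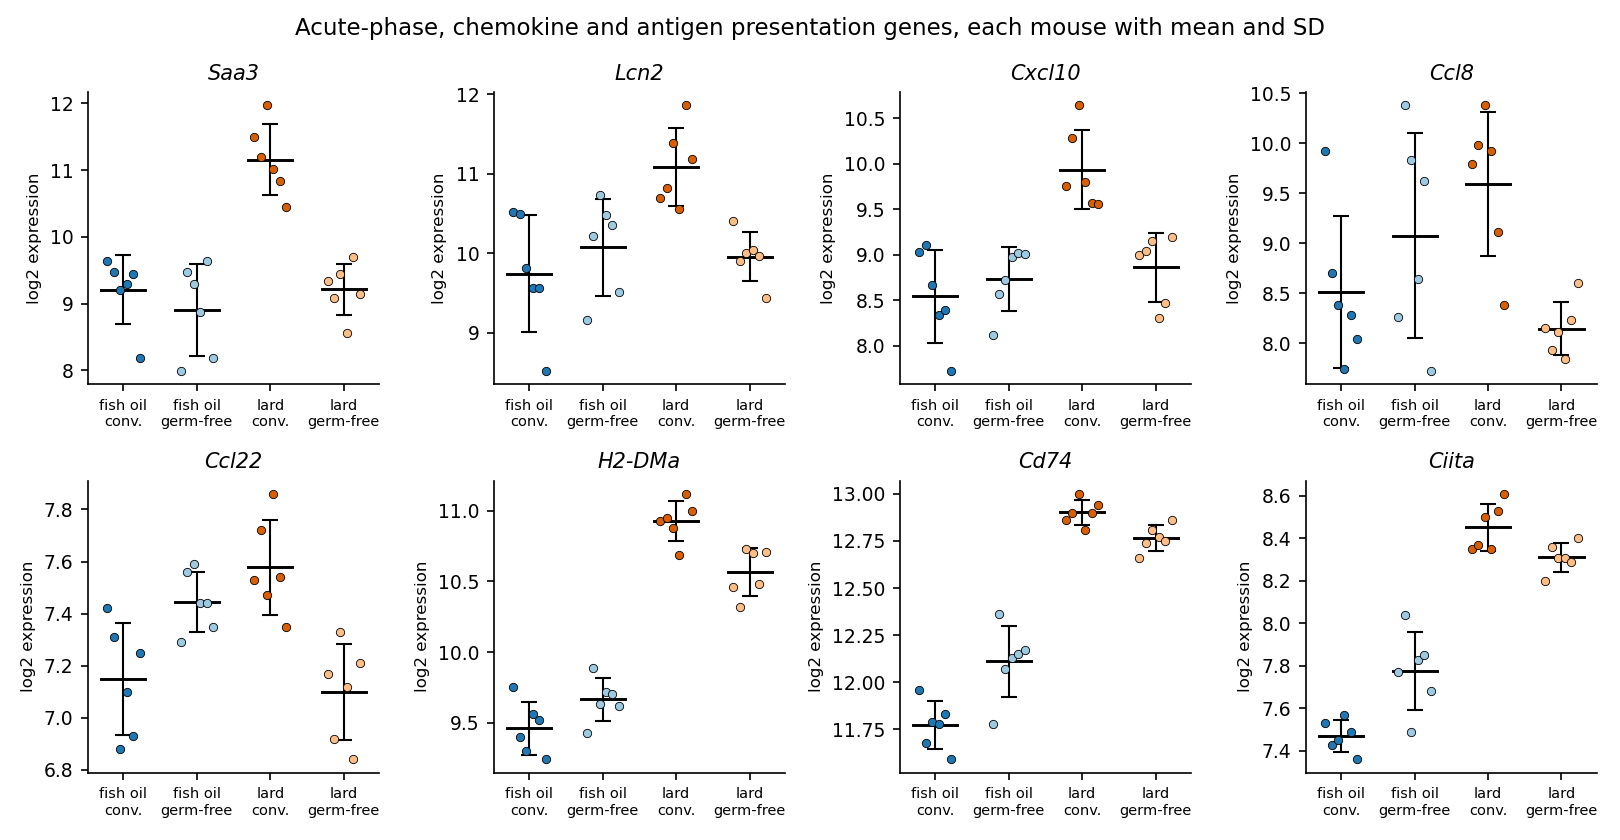
Log2 expression of 8 genes in each mouse (points), with the group mean (wide bar) and SD (whiskers), 6 mice a group. Saa3 and Cxcl10 show all 6 lard-fed conventional mice above every other mouse, and H2-DMa, Cd74 and Ciita show a large diet difference. Their smaller differences by bacterial status have opposite signs with lard and fish oil, and none of these genes was called under both fats.

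Antigen presentation on MHC class II had the largest share of called members outside the liver list. Of 11 measured genes, 7 had a positive interaction past the threshold and 0 a negative one, against 2.81% positive among all genes, and the list median was 0.45. All 11 values were above 0, from 0.12 to 0.57. These genes are made mainly by dendritic cells, macrophages and B cells, and the transcription factor Ciita drives them together.

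H2-DMa, which helps load peptide, was 9.24, 9.46 and 9.75 in fish oil-fed conventional, 9.43, 9.66 and 9.89 in fish oil-fed germ-free, 10.69, 10.94 and 11.12 in lard-fed conventional and 10.32, 10.59 and 10.73 in lard-fed germ-free mice. Every lard-fed mouse was above every fish oil-fed mouse, and the groups overlapped within each diet. The interaction was 0.57 (SE 0.13, limma adjusted p = 0.0103). Cd74, the invariant chain, had 0.48 (adjusted p = 0.00762), Ciita 0.45 (0.00924), H2-Ab1 0.52 (0.0144), H2-Eb1 0.47 (0.0205), H2-Oa 0.38 (0.0118) and H2-Ob 0.52 (0.0374).

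For Cd74 the conventional minus germ-free difference was 0.14 with lard (limma adjusted p = 0.236) and -0.34 with fish oil (0.0036). For H2-Oa the lard difference was the one past the threshold (0.29, limma adjusted p = 0.00251, against -0.08, 0.422). Of the 7 genes, 6 were called in all 24 fits without 1 mouse and H2-Ob in 8, with 0.49 and an adjusted p of 0.0725 without lard-fed conventional mouse 3. When lard-fed germ-free mice 2, 4 and 5 were left out, the limma adjusted p of the 7 lay above 0.05, at 0.0943 for H2-DMa with a value of 0.50. Clec9a, a receptor of cross-presenting dendritic cells, was above all 18 other mice in the lard-fed conventional group, at 7.66 to 8.36, with an interaction of 0.71 (limma adjusted p = 0.0372). It was called in 11 of the 24 fits, with 0.64 and 0.0749 without lard-fed conventional mouse 3.

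Upstream sequences are shown for 2 of the called MHC class II genes, whose shared motif is described below, and for Saa3 and Cxcl10, 2 of the 18 called genes in which lard-fed conventional mice were above all others. They are the 250 bases before the annotated start from RefSeq (GRCm38.p6), read 5′ to 3′ on the gene's strand, with matches to any searched motif in capitals.
H2-Eb1 (chr17:34305617-34305866, plus strand): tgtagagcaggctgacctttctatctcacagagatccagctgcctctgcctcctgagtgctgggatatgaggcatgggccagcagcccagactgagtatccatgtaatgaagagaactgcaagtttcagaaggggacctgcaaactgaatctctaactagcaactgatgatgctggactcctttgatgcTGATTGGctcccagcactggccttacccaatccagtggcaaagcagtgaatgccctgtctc
H2-Ob (chr17:34238655-34238904, plus strand): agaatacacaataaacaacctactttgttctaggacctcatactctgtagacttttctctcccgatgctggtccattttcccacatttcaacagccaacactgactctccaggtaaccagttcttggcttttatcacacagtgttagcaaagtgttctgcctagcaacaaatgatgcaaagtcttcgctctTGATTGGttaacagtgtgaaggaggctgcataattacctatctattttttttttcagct
Saa3 (chr7:46715677-46715926, minus strand): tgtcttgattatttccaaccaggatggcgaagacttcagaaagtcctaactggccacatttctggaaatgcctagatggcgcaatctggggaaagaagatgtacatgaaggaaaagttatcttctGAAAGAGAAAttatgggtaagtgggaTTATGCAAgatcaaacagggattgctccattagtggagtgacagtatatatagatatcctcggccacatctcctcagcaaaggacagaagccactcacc
Cxcl10 (chr5:92348890-92349139, minus strand): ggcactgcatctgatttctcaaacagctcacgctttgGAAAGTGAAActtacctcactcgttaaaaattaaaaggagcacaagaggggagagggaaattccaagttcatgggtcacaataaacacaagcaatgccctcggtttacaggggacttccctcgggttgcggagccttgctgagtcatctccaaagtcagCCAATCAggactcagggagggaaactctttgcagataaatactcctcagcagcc

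The motifs searched on both strands were a Y box (TGATTGG), an NF-kappaB motif (GGG, any 2 bases, TTTCC), a C/EBP motif (TTGC, any 2 bases, AA) and an interferon response element (GAAA, any 2 bases, GAAA), none overlapping another in these windows. The letters of the Y box were chosen after the H2-Eb1 and H2-Ob windows had been read, so its matches there were built in. Of 32851 such windows, 7.23% held the Y box, 1.41% the NF-kappaB, 9.56% the C/EBP and 2.98% the interferon motif. H2-Eb1 and H2-Ob held the Y box, Saa3 a C/EBP and an interferon motif, and Cxcl10 an interferon motif and, on the opposite strand, a Y box. Of 6 measured genes of the MHC list with a window, 4 held the Y box, and H2-DMa held no match to any of the motifs. The 4 include H2-Eb1 and H2-Ob, from which the letters were chosen, so this count cannot be set against the share of all windows. The NF-kappaB letters as searched were in none of the 4 windows shown, and Ccl8 held none of the searched motifs. Other forms of the NF-kappaB motif were not searched, so these counts do not show that a window lacks it. The Cxcl10 window holds gggaaattcc and gggacttccc, each near the searched letters but not matched by them. A match is a description of letters and not a binding site.

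The Toll-like receptors and their partners sense bacterial products at the cell surface and in endosomes. Of 15 measured, 0 passed in either direction by limma, against 7.2% of all genes, and 2 had an unadjusted p under 0.05. The values were -0.04 for Tlr2 (adjusted p = 0.876), -0.08 for Tlr4 (0.791) and -0.72 for the lipopolysaccharide co-receptor Cd14 (0.113). Without lard-fed conventional mice 5 and 6, Cd14 was called (-1.02, limma adjusted p = 0.00547). Among 22 adaptors and kinases, 2 were positive and 2 negative (18.2%, against 7.2% of all genes). Myd88 was not called (0.15, limma adjusted p = 0.473).

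Nfkbia, the inhibitor that NF-kappaB itself induces, was 10.34, 10.36 and 10.43 in germ-free mice fed fish oil, above all 18 others at 9.62 to 10.14, with an interaction of 0.58 (SE 0.12, limma adjusted p = 0.0049). Ticam1, the adaptor of Tlr3 and Tlr4, had 0.47 (adjusted p = 0.0157). Map3k7, the kinase that activates NF-kappaB signalling, had -0.60 (adjusted p = 0.00567) and was above all others in lard-fed germ-free mice, at 9.59, 9.79 and 10.11. Tirap had -0.39 (limma adjusted p = 0.0368) and was called in 9 of the 24 fits without 1 mouse, with an adjusted p of 0.0686 without fish oil-fed conventional mouse 3.

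Macrophages take up lipid and dead adipocytes in fat. Of 19 macrophage markers, 1 was called (5.26%), a share near the 7.2% of all genes. This was the lysozyme gene Lyz2 (0.37, limma adjusted p = 0.0298), called in 19 of the 24 fits without 1 mouse, with 0.0547 without fish oil-fed conventional mouse 3 and 0.0578 without lard-fed conventional mice 5 and 6. Of 17 genes of lipid-associated macrophages, 0 passed in either direction by limma and 5 had an unadjusted p under 0.05, with 0.87 for the lipid receptor Trem2 (adjusted p = 0.205). Itgax (0.58, adjusted p = 0.473), Cd68 (0.73, 0.0713) and Adgre1 (-0.39, 0.482) did not pass, and with the liver covariate Cd68 did (1.27, 0.025). With fish oil, Trem2 was 8.19 to 9.92 in conventional and 10.06 to 10.89 in germ-free mice, without overlap, and with lard it was 10.11 to 11.95 and 11.07 to 12.03, with overlap. Without lard-fed conventional mice 5 and 6 the interaction of Adgre1 was -0.76 (limma adjusted p = 0.0319).

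Genes of fatty acid synthesis ran in the negative direction, with conventional above germ-free mice on fish oil. Of 22 measured genes, 5 were negative past the threshold and 0 positive, against 4.38% negative among all genes, with a list median of -0.29. With fish oil, 9 of the 22 were higher in conventional mice and 0 lower, and with lard 0 were called in either direction by limma, 2 having an unadjusted p under 0.05.

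Elovl6, which lengthens palmitate to stearate, was 10.47, 10.75 and 11.45 in fish oil-fed conventional, 9.10, 9.95 and 10.29 in fish oil-fed germ-free, 9.66, 9.95 and 10.01 in lard-fed conventional and 9.96, 10.07 and 10.29 in lard-fed germ-free mice. The fish oil-fed conventional mice were above all 18 others, and the other 3 groups overlapped. The interaction was -1.22 (SE 0.24, limma adjusted p = 0.00443), from 1.02 with fish oil and -0.21 with lard.

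Me1, malic enzyme, which supplies NADPH, had -0.78 (SE 0.14, limma adjusted p = 0.00186). Acss2, which makes acetyl-CoA from acetate, a product of gut bacteria, was 10.05, 10.28 and 10.88 in fish oil-fed conventional and 8.76, 9.64 and 9.94 in fish oil-fed germ-free mice. These groups did not overlap, the lard groups lay at 9.92 to 10.65 and 9.88 to 10.65, and the interaction was -0.86 (limma adjusted p = 0.0312). Acaca, acetyl-CoA carboxylase, had -0.80 (limma adjusted p = 0.0341) and the desaturase Fads1 -0.57 (0.0263). Without fish oil-fed conventional mouse 3 the adjusted p was 0.0613 for Acss2 and 0.0666 for Acaca, and without lard-fed conventional mouse 3 it was 0.0508 for Fads1. Without lard-fed conventional mice 5 and 6 it was 0.0579 for Acss2 and 0.0659 for Acaca. Fasn (-0.40, limma adjusted p = 0.184), the regulator Srebf1 (-0.24, 0.403) and Scd1 (-0.07, 0.679) did not pass.

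Gys2, a glycogen synthase, had the most negative interaction among all called genes, -1.63 (SE 0.33, limma adjusted p = 0.00499). It was 9.27, 10.02 and 10.60 in fish oil-fed conventional, 8.05, 8.41 and 9.57 in fish oil-fed germ-free, and 9.67 to 10.55 over both lard groups. The fish oil-fed germ-free mice were the low group, with 1 mouse of 6 reaching the range of the conventional ones.

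Enzymes of the tricarboxylic acid cycle and pyruvate oxidation followed the same direction. Of 20 measured genes, 6 (30.0%) were negative, against 4.38% of all genes, and 0 positive, with a median of -0.28, and 14 were higher in conventional mice with fish oil against 4 higher and 3 lower with lard. Ogdh, of the oxoglutarate dehydrogenase complex, was 11.19, 11.32 and 11.42 in lard-fed conventional and 11.50, 11.80 and 11.99 in lard-fed germ-free mice, without overlap, while the fish oil groups overlapped at 11.45 to 11.88 and 11.21 to 11.56. Its interaction was -0.60 (SE 0.11, limma adjusted p = 0.00297). Idh3a had -0.54 (adjusted p = 0.00469), the pyruvate dehydrogenase subunit Pdha1 -0.61 (0.0113), Suclg2 -0.85 (0.011) and Dlat -0.44 (0.0286). Dlat had -0.40 and an adjusted p of 0.0565 without fish oil-fed conventional mouse 3.

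Of 31 genes of oxidative phosphorylation, 4 (12.9%) were negative, against 4.38% of all genes, and 0 positive. The list median, -0.03, lay near that of all genes. In this list 23 members were higher and 2 lower in conventional mice with lard, and 23 were higher and 0 lower with fish oil. Atp5b, a subunit of ATP synthase, had -0.40 (SE 0.07, limma adjusted p = 0.00164). Ndufs1 of complex I had -0.56 (adjusted p = 0.0353) and Uqcrc2 of complex III -0.37 (0.0278). Without lard-fed conventional mouse 3 the adjusted p was 0.0704 for Ndufs1 and 0.0547 for Uqcrc2. Acot2, a mitochondrial acyl-CoA thioesterase, had -1.13 (limma adjusted p = 0.00212), with 9.29 to 10.28 in lard-fed germ-free mice against 8.62 to 9.34 in the other 18.

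**Figure D3:**
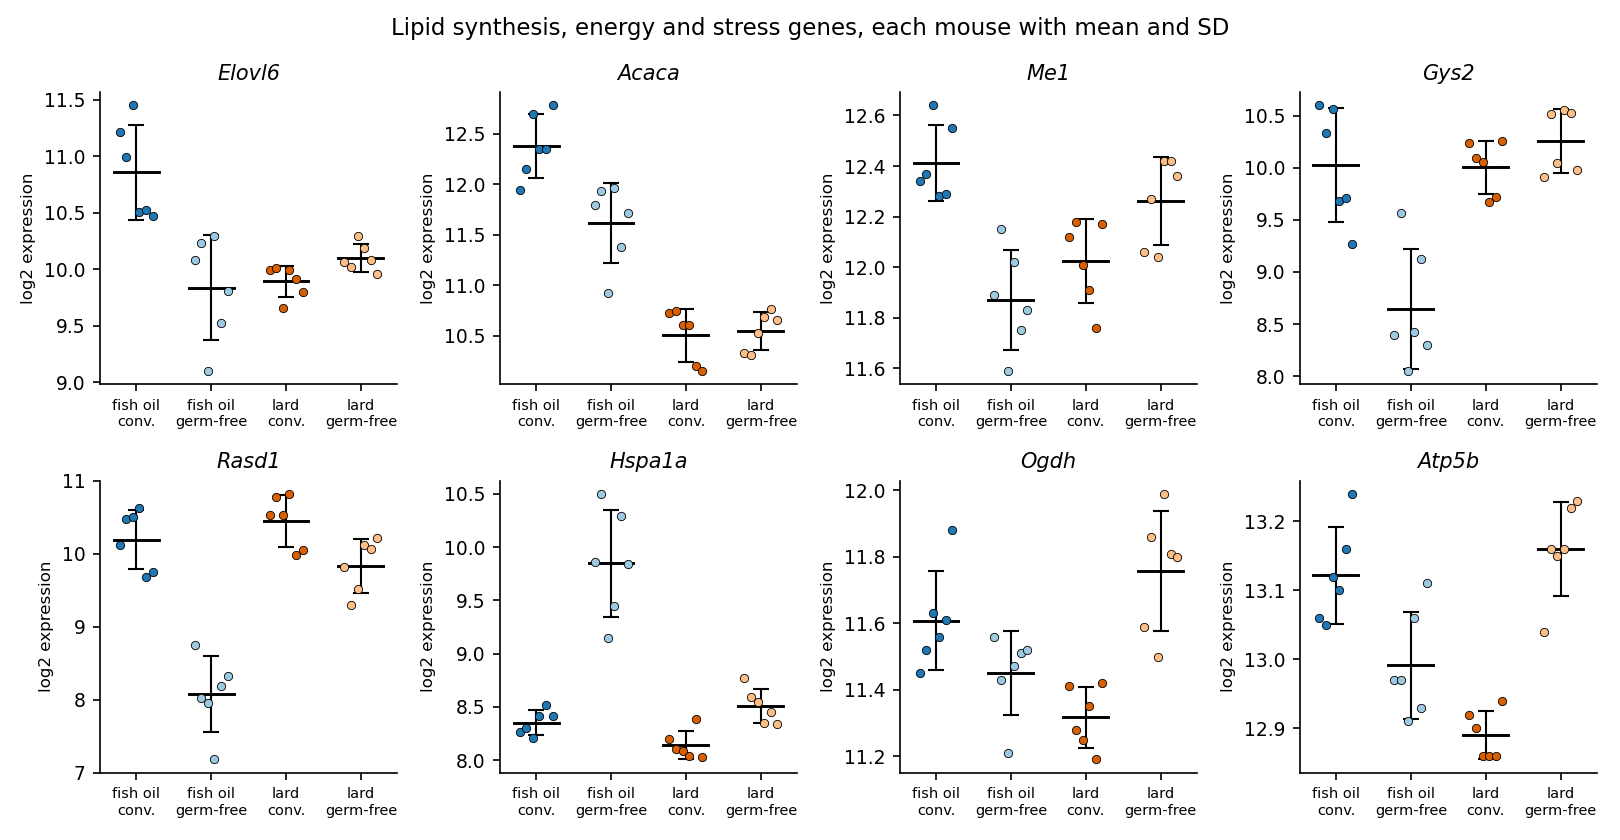
Log2 expression of 8 genes in each mouse (points) with group mean (wide bar) and SD (whiskers), 6 mice a group. Elovl6 and Acaca are higher in fish oil-fed conventional than germ-free mice and close in the lard groups, Rasd1 is low and Hspa1a high in germ-free mice fed fish oil, and Ogdh and Atp5b are higher in lard-fed germ-free than lard-fed conventional mice.

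Among lipid droplet and lipolysis genes, 3 of 20 (15%) were negative, against 4.38% of all genes, and 0 positive, and 2 of the 3 were lost in most fits without 1 mouse. Cidea, a droplet protein, was above all other mice in the fish oil-fed conventional group, at 7.66, 8.02 and 9.73, with -1.06 (limma adjusted p = 0.0469). It was called in 4 of the 24 fits without 1 mouse, and without fish oil-fed germ-free mouse 6 it had -1.01 and an adjusted p of 0.0725. Plin1, the droplet coat protein, had -0.34 (limma adjusted p = 0.044, and 0.0788 without fish oil-fed germ-free mouse 3). Bscl2, seipin, had -0.32 (0.0227). Of 19 adipokine and expansion genes, 0 passed by limma, against 7.2% of all genes, and 3 had an unadjusted p under 0.05. The values were 0.02 for Adipoq (limma adjusted p = 0.971), 0.12 for Lep (0.732) and 0.17 for Retn (0.765), and Pparg had 0.06 (0.773). Without lard-fed conventional mice 5 and 6 the value of Retn was 0.56 (limma adjusted p = 0.0126).

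Of 19 sensors of microbial metabolites, 1 was positive and 1 negative (10.5%, against 7.2% of all genes), each close to the threshold. Ffar4, a receptor for long-chain and omega-3 fatty acids, had -0.51 (limma adjusted p = 0.0464) and was above all others in fish oil-fed conventional mice, at 8.87, 9.02 and 9.16. Fish oil-fed conventional mice were above all others in 1.37% of all genes and below them in 0.893%. Gpr35 had 0.37 (adjusted p = 0.0472). Ffar4 was called in 7 and Gpr35 in 6 of the 24 fits without 1 mouse, with 0.0863 without lard-fed conventional mouse 3 and 0.0867 without fish oil-fed germ-free mouse 5. Ffar2, a receptor for short-chain fatty acids, was higher in conventional mice with both fats, by 0.50 with lard (limma adjusted p = 0.00427) and 0.44 with fish oil (0.0145), and its interaction was 0.07 (0.856). The interaction of Ffar3 was 0.10 (limma adjusted p = 0.678).

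Several stress genes were highest in germ-free mice fed fish oil. Hspa1a, an inducible heat shock protein, was 9.15, 9.85 and 10.50 in them, 8.21, 8.36 and 8.52 in fish oil-fed conventional, 8.03, 8.10 and 8.39 in lard-fed conventional and 8.34, 8.50 and 8.77 in lard-fed germ-free mice. All 6 fish oil-fed germ-free mice were above the other 18, and the interaction was 1.13 (SE 0.21, limma adjusted p = 0.00271). This group was above all others in 62 of all genes (0.311%) and below them in 0.261%. Its co-chaperone Bag3 had 0.61 (adjusted p = 0.00136), whereas the mitochondrial chaperonin Hspd1 had -0.42 (0.0481, and 0.0956 without lard-fed conventional mouse 3). These were the 3 called of 13 heat shock genes (23.1%, against 7.2% of all genes).

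Of 22 immediate early genes, 4 (18.2%) were positive, against 2.81% of all genes, and 0 negative, among them Nr4a3 (0.70, limma adjusted p = 0.0148) and Fosl2 (0.56, 0.0172). Of 17 glucocorticoid-responsive genes, 2 were positive and 3 negative (29.4%, against 7.2% of all genes). Ddit4, an inhibitor of mTOR signalling, had 0.67 (adjusted p = 0.00186) and was below all others in fish oil-fed conventional mice, at 8.18 to 8.50. Hsd11b1, which regenerates active glucocorticoid, had -1.10 (limma adjusted p = 0.0225) and was above all others in that group, at 9.83, 10.19 and 10.99. The glucocorticoid receptor Nr3c1 had -0.39 (0.0207) and its target Klf9 -0.65 (0.0412, and 0.0818 without lard-fed conventional mouse 3).

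Rasd1, a Ras-like protein induced by glucocorticoid, was 9.68, 10.29 and 10.62 in fish oil-fed conventional, 7.18, 8.10 and 8.75 in fish oil-fed germ-free, 9.98, 10.53 and 10.82 in lard-fed conventional and 9.29, 9.94 and 10.22 in lard-fed germ-free mice. The fish oil-fed germ-free mice were below the other 18. The effect of bacterial status was 2.12 with fish oil (limma adjusted p = 2.89e-06) and 0.61 with lard (0.06), an interaction of -1.51 (SE 0.31, adjusted p = 0.00556).

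Of 24 genes of the unfolded protein response, 4 were positive and 3 negative (29.2%, against 7.2% of all genes). Manf, a secreted stress protein, had 0.49 (limma adjusted p = 0.00707), Creld2 0.46 (0.0147) and the regulator Atf4 0.40 (0.00695). The serine synthesis enzyme Psat1 had -0.61 (0.00309) and Edem1, of degradation from the endoplasmic reticulum, -0.50 (0.022). The liver marker mean was also highest in the fish oil-fed germ-free group, and in a fit with that mean as a covariate Hspa1a had 0.84 (limma adjusted p = 0.0913) and Bag3 0.81 (0.0022).

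A further group of genes was highest in lard-fed germ-free mice. Their 6 mice were above all others in 149 of all genes (0.747%) and in 88 of the interaction calls, and below all others in 0.823% of all genes. Oxtr, the oxytocin receptor, was 7.88, 8.50 and 8.79 in fish oil-fed conventional, 7.88, 8.13 and 8.37 in fish oil-fed germ-free, 9.73, 10.22 and 10.71 in lard-fed conventional and 10.77, 11.61 and 12.03 in lard-fed germ-free mice. The fish oil groups overlapped, and the lard groups were separate from them and from each other. The interaction was -1.55 (SE 0.29, limma adjusted p = 0.00275).

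Pdcd4, an inhibitor of translation, was 10.98, 11.56 and 11.69 in lard-fed germ-free and 10.21, 10.38 and 10.78 in lard-fed conventional mice, against 9.63 to 10.12 with fish oil. Its interaction was -1.09 (SE 0.15, limma adjusted p = 0.000653). Timmdc1, an assembly factor of complex I, was 10.20, 10.31 and 10.34 in lard-fed germ-free mice, 9.15, 9.38 and 10.12 in lard-fed conventional, 9.38, 9.42 and 9.49 in fish oil-fed conventional and 8.94, 9.11 and 9.19 in fish oil-fed germ-free mice. Its interaction of -1.14 (SE 0.14, limma adjusted p = 0.000321) was called in all 24 fits without 1 mouse and, at -1.12 with an adjusted p of 0.00505, without mice 2, 4 and 5 of the lard-fed germ-free group. Pdcd4 was also called without those mice (-0.92, limma adjusted p = 0.00788).

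Sike1, a suppressor of the kinase that activates Irf3, had -1.10 (limma adjusted p = 0.00769) with 1 conventional mouse on the germ-free side. It was 10.32 to 10.73 in lard-fed germ-free mice, 10.55 in lard-fed conventional mouse 6, 9.01 to 9.19 in the other 5 of that group and 8.74 to 8.96 with fish oil. Inmt, a methyltransferase of amines, had -1.51 (limma adjusted p = 0.0144), with 9.78 to 10.43 in lard-fed germ-free and 8.14 to 9.24 in lard-fed conventional mice. Dhdh (-1.02, limma adjusted p = 0.00102) and the dipeptidase Dpep1 (-1.01, 0.0011) also passed. Gpr50, an orphan receptor, was 9.46 to 12.30 with lard and 5.21 to 8.29 with fish oil, and had an interaction of -0.06 (limma adjusted p = 0.964).

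**Figure D4:**
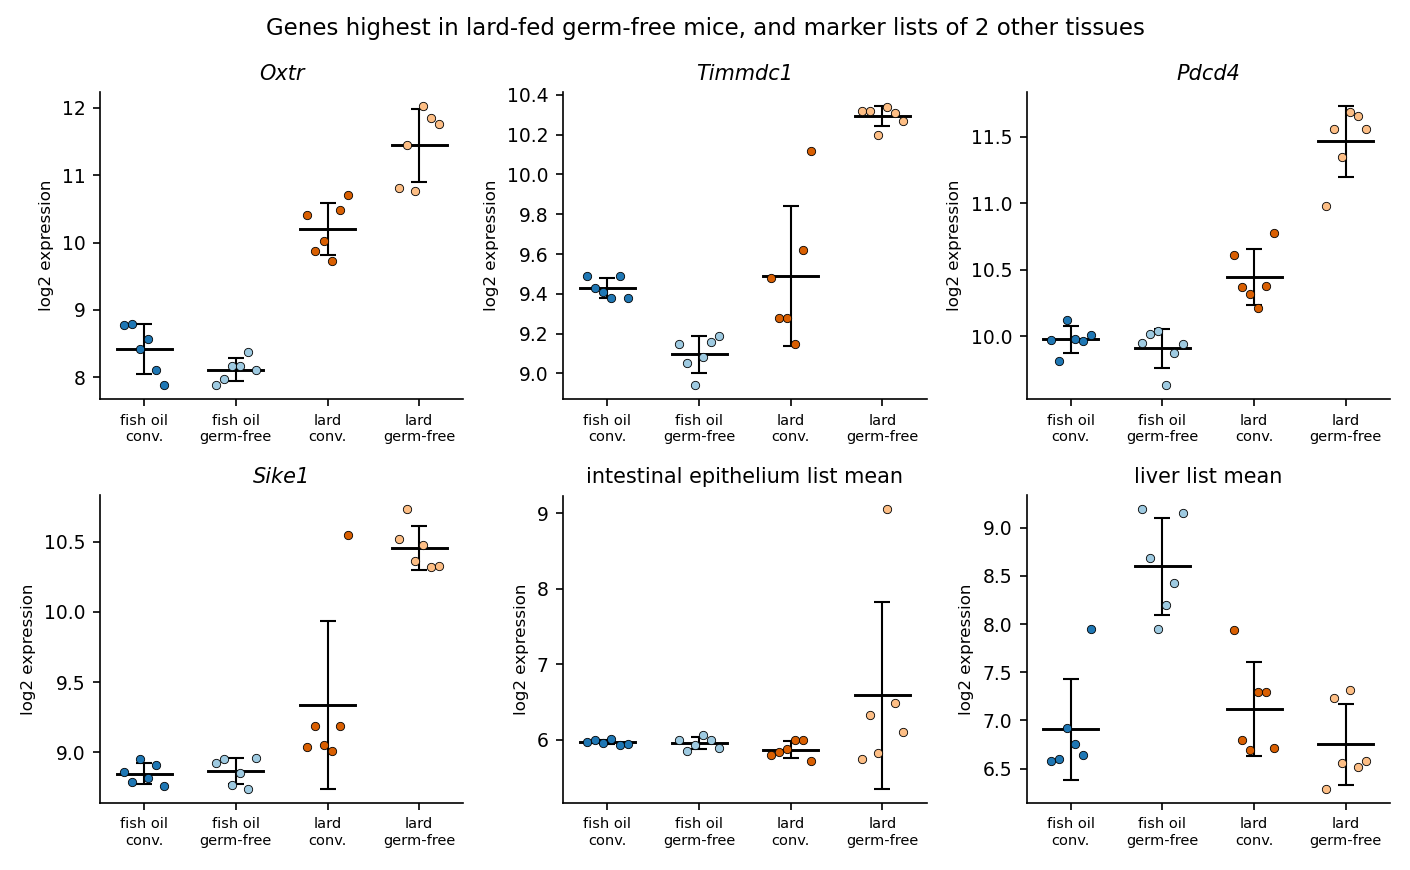
Log2 expression in each mouse (points) with group mean (wide bar) and SD (whiskers), 6 mice a group, for 4 genes and for the means of the intestinal and liver marker lists. The 4 genes have their highest mean in lard-fed germ-free mice, with lard-fed conventional mouse 6 at 10.55 for Sike1, the intestinal mean is 9.05 in 1 mouse, and the liver mean is highest in germ-free mice fed fish oil.

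Genes called under both fats in opposite directions included Ide, the insulin-degrading enzyme. It was 9.88, 10.02 and 10.26 in fish oil-fed conventional, 9.46, 9.72 and 9.81 in fish oil-fed germ-free, 9.73, 9.80 and 10.04 in lard-fed conventional and 10.08, 10.17 and 10.45 in lard-fed germ-free mice. Conventional and germ-free mice did not overlap within either diet, and the order reversed. The difference was 0.36 with fish oil (limma adjusted p = 0.00455) and -0.38 with lard (0.00223), an interaction of -0.74 (SE 0.11, adjusted p = 0.000844). Mr1, which presents microbial vitamin metabolites to T cells, had the same shape, 0.40 with fish oil and -0.41 with lard, and an interaction of -0.81 (limma adjusted p = 0.000653). Abi3, an actin regulator of immune cells, had -0.42 with fish oil and 0.50 with lard (interaction 0.92, limma adjusted p = 0.0011). Tagln, a smooth muscle protein, had -0.38 and 0.45 (interaction 0.83, 0.00243).

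Further genes with the widest gaps set a single group apart. In lard-fed conventional mice, Tmem97, a sterol-responsive membrane protein, was 10.79 to 11.36 against 9.64 to 10.47 in all others, with 0.53 (limma adjusted p = 0.0172), and the carbonic anhydrase Car6 had 0.85 (0.00906). In fish oil-fed conventional mice, coagulation factor F7 was 6.88 to 7.84 against 8.09 to 9.67 in all others, with 0.97 (limma adjusted p = 0.00791). In germ-free mice fed fish oil, C-reactive protein, Crp, was 6.01 to 6.61 against 5.20 to 5.63, with 0.85 (limma adjusted p = 0.00109). Crp is known as a product of hepatocytes, and the liver marker mean was highest in the same group. With that mean as a covariate neither was called, Crp at 0.41 (limma adjusted p = 0.131) and F7 at 0.95 (0.0666). Entpd4, a Golgi nucleotidase, was higher in germ-free mice with both fats, by more with lard: -0.94 against -0.59, an interaction of -0.35 (limma adjusted p = 0.00636).

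The largest positive interactions belonged to genes made by hepatocytes. Of 26 measured liver markers, 22 (84.6%) were positive, against 2.81% of all genes, and 0 negative, with a list median of 1.67. With fish oil 24 of the 26 were lower in conventional mice, against 1 higher with lard. Alb, serum albumin, was 11.70, 12.32 and 12.88 in fish oil-fed germ-free, 8.39, 8.97 and 11.28 in fish oil-fed conventional, 8.21, 9.85 and 11.32 in lard-fed conventional and 6.4, 8.22 and 10.84 in lard-fed germ-free mice. The fish oil-fed germ-free mice were above all others, and the other groups overlapped widely. The interaction was 4.33 for Alb (SE 0.88, limma adjusted p = 0.00512), 5.42 for the protease inhibitor Serpina1c (0.00186), 3.45 for Ahsg (0.000653) and 3.29 for fibrinogen Fgb (0.0011).

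Fabp1, made in both liver and intestine, was 10.02 in lard-fed germ-free mouse 4, 5.35 to 7.45 in the other 5 and 7.91 to 10.30 in germ-free mice fed fish oil, with 3.15 (limma adjusted p = 0.0291, and 0.0531 without lard-fed conventional mouse 4). Of the 24 intestinal markers, 0 passed by limma, against 7.2% of all genes, and 2 had an unadjusted p under 0.05, with a median of -0.77. Alb, Serpina1c, Ahsg and Fgb are members of the liver list, so their values with its mean as a covariate, such as 0.26 for Serpina1c, test nothing. In that fit Saa3 had 3.00 (limma adjusted p = 0.00149), Cxcl10 2.28 (0.00201), H2-DMa 0.80 (0.0105), Elovl6 -1.36 (0.0248) and Oxtr -1.45 (0.0444). Not called in that fit were Gys2 (-1.47, limma adjusted p = 0.0696), H2-Eb1 (0.56, 0.0595), Sike1 (-0.93, 0.105), Tirap (-0.24, 0.358), Plin1 (-0.44, 0.0718), Tie1 (0.87, 0.103) and Fabp1 (-1.11, 0.308).

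**Figure D5:**
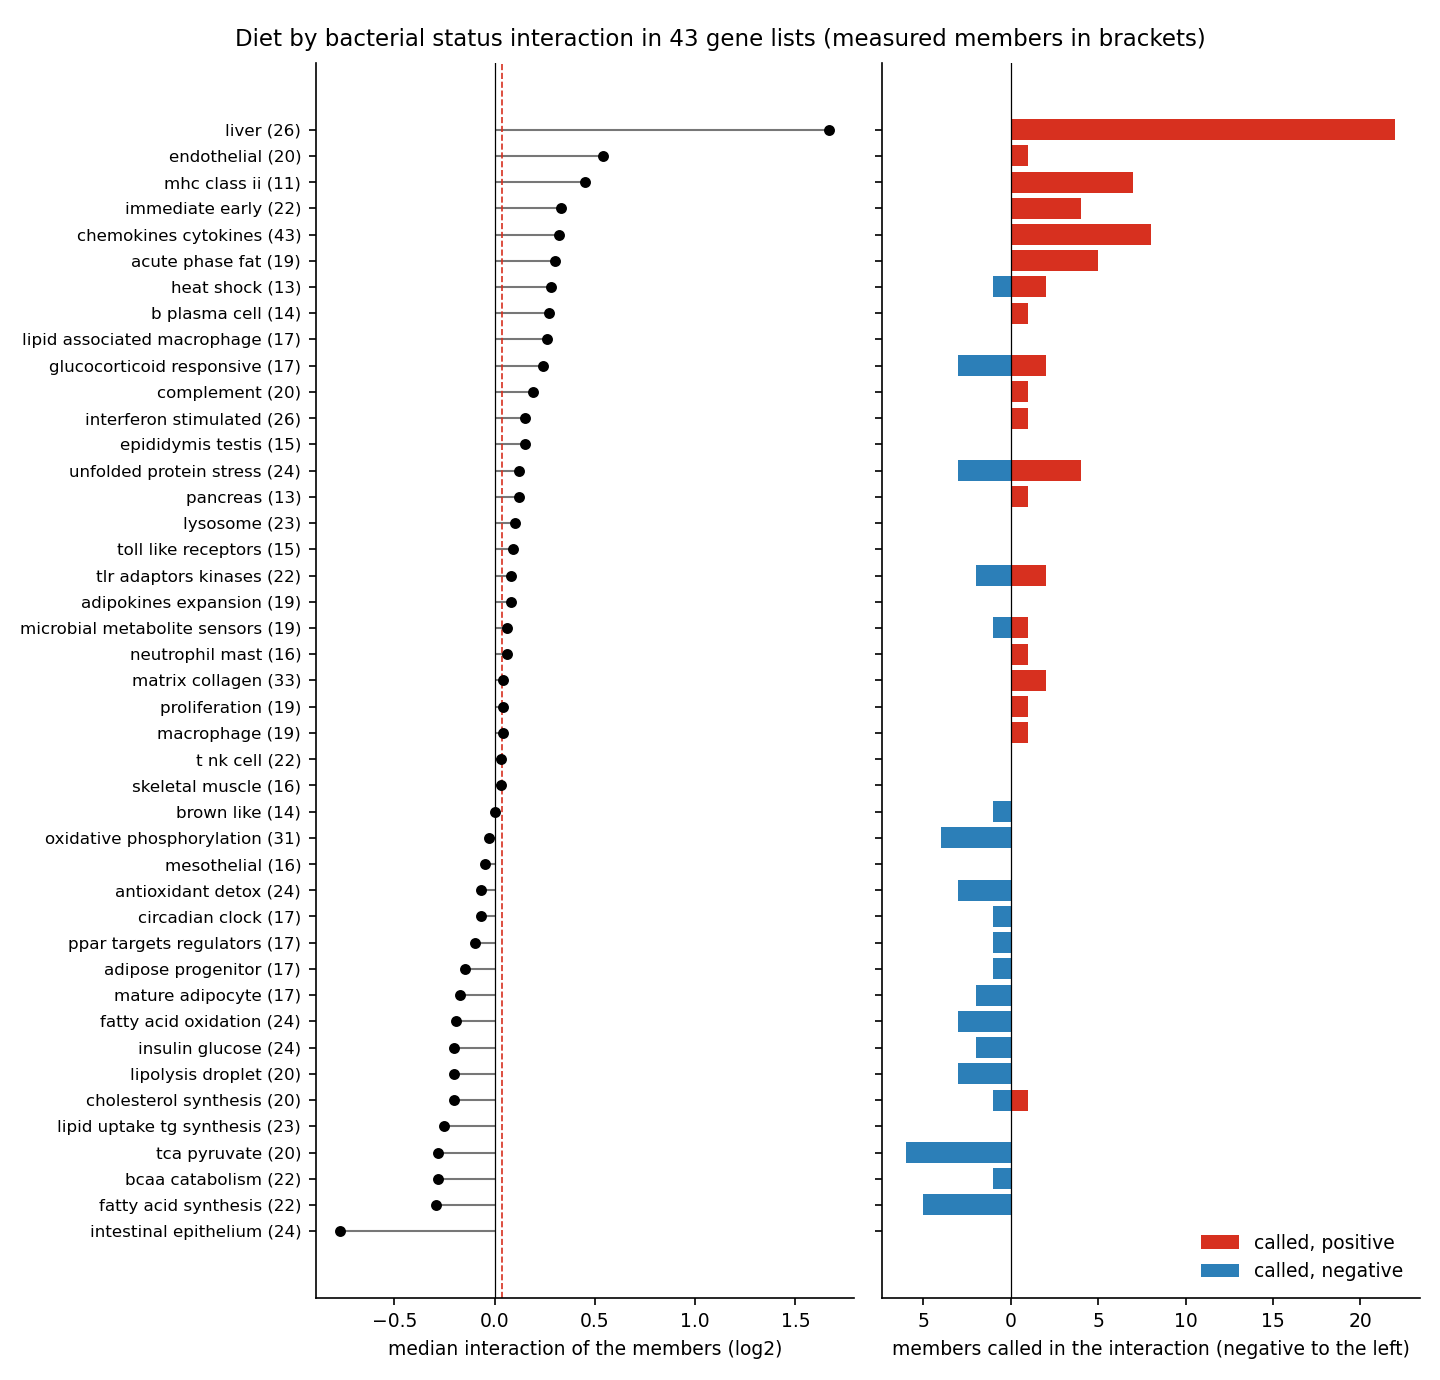
For each of 43 gene lists with at least 5 measured members, the left panel gives the median interaction (log2), with the dashed line at the median of all genes, and the right panel the number of members called, negative to the left and positive to the right. The liver list has the most positive calls, 22, followed by chemokines and cytokines with 8 and MHC class II with 7, and negative calls are most frequent in the tricarboxylic acid cycle list, with 6.

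The share of called genes also varied with signal level. With genes divided into 4 equal classes by mean level, the lowest class, of 4985 genes, held 114 positive and 4 negative calls. The highest class, also of 4985, held 133 positive and 525 negative calls. The lists of fatty acid synthesis, tricarboxylic acid cycle, oxidative phosphorylation and lipid droplets had high means, 9.85 to 11.84 over the mice. Their negative shares were set against all genes and not against genes of like level, so a part played by level was not tested. Other lists gave few calls: T and NK cells 0 of 22, lysosome 0 of 23, triglyceride synthesis and lipid uptake 0 of 23, mesothelium 0 of 16 and skeletal muscle 0 of 16, all by limma. The share over all genes was 7.2%. At an unadjusted p under 0.05 these counts were 4, 4, 11, 1 and 3. Of 20 endothelial markers, 1 was called (5.0%), the receptor Tie1 (0.78, limma adjusted p = 0.0322, and 0.0615 without lard-fed conventional mouse 4), although the list median was 0.54. Of the 20, 18 had a value above 0, and 11 had an unadjusted p under 0.05, all positive. Over all 19938 genes 4416 had an unadjusted p under 0.05 in either direction.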

How the data were processed

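Each of the 24 arrays, a one-colour whole-transcript design, measured 250 ng of RNA from 1 mouse, per the labels' protocols. The authors deposited 1 log2 value for each probe set on each array. RMA, named in the submitters' processing notes with no version or annotation, had made them. RMA equalises the arrays' distributions, and medians were 7.09 to 7.20. With fish oil they were 7.1 to 7.131 in conventional and 7.17 to 7.198 in germ-free mice, without overlap. With lard they were 7.085 to 7.177 and 7.085 to 7.145. The balance of positive and negative interaction calls changed with median centring, as given below. Scan batches were not tested. No label speaks of cages or litters, so p-values measure the spread between these mice. How many arrays there are bounds the precision.

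Of 35556 probe sets, 21789 had 1 gene symbol, and the brightest per gene gave 19938 genes; those with several symbols (1621) or no symbol (12146) did not enter. The 4 group means were fitted with limma 3.58.1 in R 4.3.3, with two-sided tests, Benjamini-Hochberg adjustment over all genes and a threshold of 0.05. The script was tested on simulated data. Same-numbered mice did not deviate together, so no block was used.

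The contrast, the gene lists and the tests were chosen with earlier results of these data known. The rule for named genes took the 20 largest calls in each direction, up to 4 called members per list, the 10 opposite genes with the largest smaller effect, the 5 widest gaps per group and a panel, of which some are named here. Ccl19, Ccl22, Cxcl12, H2-Eb1, H2-Oa, Ciita, Clec9a, Fads1, Dlat, Idh3a, Nr3c1 and Atf4 were added after their values were seen. The Y box letters were set after the H2-Eb1 and H2-Ob windows had been read. Upstream windows came from RefSeq (GRCm38.p6).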

Additional observations from a re-analysis of the deposited data

Results flagged for a closer look

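The effect of bacterial status differed between the diets, by limma's interaction test, in 1435 of 19938 genes (7.2%). Among 13767 probe sets that carry no single gene symbol and entered none of the comparisons above, 451 passed the same test (3.28%), 247 higher and 204 lower, from -2.34 to 5.15.

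Of 468 sets of 6 values examined, 20 had a mouse far from the other 5 by Dixon's criterion. Chance alone reaches it in about 1 set in 20, and the share seen was no larger than that. Fish oil-fed conventional mouse 6 stood out most often, mainly in liver transcripts, which are not separate observations since Alb, Ahsg and Fgb belong to the liver list. Its liver marker mean was 7.95 against 6.58 to 6.92 in the other 5, with Alb at 11.28, Ahsg at 7.91, Fgb at 8.34 and Fabp1 at 7.63. In the same mouse Cidea was 9.73 against 7.66 to 8.15 and Saa3 8.19 against 9.21 to 9.64. Elsewhere in that group, Clec9a was 7.54 and Retn 13.88 in mouse 1, Crp was 5.22 in mouse 4 and Ffar2 9.59 in mouse 5.

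Lard-fed conventional mouse 6 had Sike1 at 10.55 against 9.01 to 9.19 and Acot2 at 9.28 against 8.66 to 8.87, and mouse 5 had Plin1 at 12.15. Among lard-fed germ-free mice, mouse 4 had an intestinal marker mean of 9.05 against 5.74 to 6.48. Uqcrc2 was 12.12 and Fetub 6.31 in mouse 1 of that group, and Ffar2 was 8.76 and Slc16a7 9.98 in mouse 2. Ogdh was 11.21 in mouse 3 of the germ-free group fed fish oil.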

How the results depend on the processing

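The 1435 interaction calls became 385 at 1.5-fold or more, 2525 with array weights, 2710 once lard-fed conventional mice 5 and 6 were dropped, 225 once mice 2, 4 and 5 of the lard-fed germ-free group were, and 861 to 2068 when 1 mouse was left out. All 1435 kept their sign in these fits and in the normalization, prior and block alternatives, except that 1406 did with the liver marker mean as a covariate, where 863 were still called. These genes were chosen from the same arrays, so a kept sign tests little. Median centring gave 2000 calls, 15.6% of them positive against 39.1%, with the median of all genes moved by -0.087. With the replicate block the interaction gave 1131 calls, but same-numbered mice did not pair: 9 of 36 pairs correlated above 0.1, and 2 of 24 arrays were closest to their own number. With lard, the 3240 calls of bacterial status became 294 at 1.5-fold, 5052 over all probe sets, 5032 with array weights, 5078 without conventional mice 5 and 6, 177 without germ-free mice 2, 4 and 5, and 2253 to 4301 without 1 mouse. With fish oil, the 2464 calls became 361 at 1.5-fold and 1760 to 2752 without 1 mouse, and median centring gave 3457 calls, 2756 of them higher. With the liver covariate fish oil gave 1654 calls, and 866 of the 2464 were among them. With the liver mean as a covariate the interaction was -0.06 for Alb and -1.11 for Fabp1, reversing both, neither called, and Alb is part of that mean. The block also brought Ccl2 to an adjusted p of 0.0331. Of 93 called genes tabulated by mouse, 59 were lost without those 3 lard-fed germ-free mice, 18 with the liver covariate, 9 with the block and 0 with array weights. The causes were not tested, and the part played by the smaller number of mice in fits that leave mice out was not tested either. These fits, with quantile normalization, were chosen with earlier results known.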

Other observations

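Single mice differed in how clearly they lay with their group. Lard-fed conventional mouse 6 lay outside the range of the lard-fed germ-free mice for Entpd4, Saa3 and Cxcl10, as given above. Among the 1921 genes described above, it lay within that range in 1016 (52.9%), and whether it carries the right label cannot be told from the files. The same share was 4.15% to 22.7% for the other conventional mice fed lard. It was 38.9% for mouse 1 of the lard-fed germ-free group and 30.2% for mouse 2 of the germ-free group fed fish oil.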
